A study of Mus musculus with 6 samples.

Results

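Smooth muscle, pericyte and actomyosin contractile genes were examined in cultured mouse lung endothelial cells labelled wild type or knockout for Zmpste24. The genes were 36 symbols taken from the table of 53735 genes, all found in it, and 34 of them averaged 10 or more normalized counts across the libraries and were tested, as were 15229 genes of the whole table. The other 2 members were Pln, the phospholamban gene, listed at 0 in every library, and Pdlim3, a Z-disc protein gene, at 0.857 to 16.4 counts. A normalized count is the number of reads of a gene divided by a size factor of its library.

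The 2 wild type libraries, wild type 1 and 2 (WT1 and WT2 in the plots), are labelled as from mice with intact Zmpste24. The 4 knockout libraries, knockout 1 to 4 (KO1 to KO4), are labelled as from mice lacking this metalloprotease, which completes the maturation of lamin A. Per the labels, all were untreated primary cultures without passage, isolated with beads against CD31 and ICAM2 and grown to confluence on gelatin, from 2 cohorts of mice that are not assigned to libraries. Neither the deleted part of the gene nor the age or sex of the mice was given in the sources used here. The submitters describe the cultures as almost entirely endothelial.

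The counts of the targeted gene overlapped between the labels. Zmpste24 had 5503 and 4148 normalized counts in the libraries labelled wild type and 5079, 3764, 3599 and 3720 in those labelled knockout. Knockout 1 lay between the wild type libraries, and the log2 difference was -0.26 ± 0.20 (SE, limma adjusted p = 1.00). Each knockout was below the wild type library it clustered with, and with a term for these library sets the difference was -0.15 ± 0.06 (SE, limma adjusted p = 0.999; DESeq2 adjusted p = 1.00). Counts over the whole gene cannot show a deletion that leaves a transcript. Every genotype and direction below is therefore that of the label: "knockout 1" is the library labelled so, and a difference is labelled knockout minus labelled wild type. Values for "the wild types" are given in the order wild type 1, 2, and those for "the knockouts" in the order knockout 1, 2, 3, 4.

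Smooth muscle and pericytes, together called mural cells, wrap the endothelial tube and narrow it by sliding actin filaments along myosin. Myosin pulls when its light chain is phosphorylated by myosin light chain kinase and lets go when a phosphatase removes the phosphate. Many contractile genes are switched on by serum response factor (SRF), which binds a short DNA element called the CArG box, together with myocardin or the related actin-sensing cofactors. Cultured fibroblasts, and endothelial cells that take on mesenchymal traits, can also express smooth muscle actin and transgelin, so these genes do not by themselves identify a muscle cell.

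Promoter sequences are shown because the genes with a CArG box differed widely in how their counts varied between libraries. RefSeq promoter windows, mostly before and partly after the annotated start, were found for 30 members (34 promoters, some genes having more than 1); Actg2, Aoc3, Myh11, Myocd, Nexn and Tagln had no entry. The CArG box is a run of A or T letters between CC and GG, and its pattern reads the same on both strands. A full box was present in 5 members, Cnn2, Ldb3, Myl9, Srf and Vcl, in 6 of 34 member promoters (17.6%) and in 1.63% of all 32851 promoters. With at most 1 inner letter other than A or T allowed, which includes the full boxes, 9 of 34 member promoters (26.5%) held a match. So did 9.98% of all promoters. These were promoters of 8 members, adding Acta2, Lpp and Pdlim3, and the Lpp match lay after the start. No test was made of these shares, and a match does not show binding. The 170 bases before the start are given below for 4 genes, 5′ to 3′ on the gene's strand, GRCm38.p6, with matching boxes in capitals.
Acta2 (chr19:34255374-34255543, minus strand): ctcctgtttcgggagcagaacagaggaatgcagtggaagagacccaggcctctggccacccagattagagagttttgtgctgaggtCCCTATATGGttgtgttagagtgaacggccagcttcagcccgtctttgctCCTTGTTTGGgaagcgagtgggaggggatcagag
Myl9 (chr2:156775294-156775463, plus strand): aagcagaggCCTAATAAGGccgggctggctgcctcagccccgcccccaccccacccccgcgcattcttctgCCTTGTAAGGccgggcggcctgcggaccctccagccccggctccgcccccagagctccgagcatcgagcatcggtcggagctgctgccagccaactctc
Cnn2 (chr10:79988430-79988599, plus strand): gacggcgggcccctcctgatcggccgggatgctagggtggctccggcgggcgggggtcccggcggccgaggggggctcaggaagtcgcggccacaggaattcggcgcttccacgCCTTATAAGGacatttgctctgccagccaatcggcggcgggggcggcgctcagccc
Srf (chr17:46556163-46556332, minus strand): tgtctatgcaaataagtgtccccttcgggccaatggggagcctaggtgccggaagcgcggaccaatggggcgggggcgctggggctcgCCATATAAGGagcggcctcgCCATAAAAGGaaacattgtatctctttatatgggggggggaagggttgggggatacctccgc
The Acta2 stretch holds 2 boxes, each with 1 letter off the full form, which begin at positions -84 and -34 from the start. Myl9 has its boxes at -161 and -99, Cnn2 at -56, and Srf at -82 and -62. These positions count from the RefSeq start, and the GENCODE gene intervals begin earlier. The GENCODE interval of Acta2, 34241090 to 34255590, covers its whole printed stretch, so by that annotation both boxes lie after the start. For Myl9, Cnn2 and Srf the GENCODE interval begins inside the stretch, after the boxes.

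The libraries differed by more than genotype. Clustering on 15195 tested genes that are not members placed wild type 1 and knockout 1 together, apart from the other 4 libraries (r = 0.978 to 0.990 within these sets and 0.908 to 0.935 between them, across genes, which are not independent replicates). Depth was 32699024 to 45613685 reads, and 21074 to 22524 genes had a read. Summed over 15 endothelial markers, all detected, wild type 1 and knockout 1 had 215526 and 127718 normalized counts and the other 4 libraries 47509 to 76290. The 12 fibroblast markers summed to 864323 and 865786 in the pair and 967955 to 1118286 in the others. That sum was led by Fn1, Col1a2 and Col1a1. By gene, 9 of the 12 were lower in the pair and 3 higher, with a median log2 difference of the set means of -1.08. The 12 macrophage markers summed to 5249 and 4263 against 29720 to 48559, and 8 mesothelial markers to 37677 and 82653 against 10264 to 20877. Endothelial markers were thus detected in every library, beside abundant markers of other cells. Of 27 cardiac and skeletal muscle genes, 8 passed the filter, and the list summed to 652 and 628 counts in the pair and 279 to 317 in the others. Actc1 and Myh6, which encode cardiac actin and myosin, were at 0 to 14.7 and 0 to 4.19. Tnnt2 of the same list had 238 and 142 counts in the pair and 2.57 to 10.4 in the others. On the log2 scale of the set means, 5 of the 8 tested genes were higher in the pair and 3 lower. The part of these cells in the results below was not tested. In bulk RNA, fewer cells of a type and less RNA per cell cannot be told apart.

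Summed RNA of the 36 genes was abundant in every library and most abundant in wild type 1 and knockout 1. The 36 genes together took 1.81% and 1.70% of normalized counts there, and 1.02% in wild type 2 and 1.18%, 1.10% and 1.03% in knockout 2, 3 and 4. Among the 34 genes that passed the filter, 20 (58.8%) were higher in both libraries of the pair than in all of the other 4, against 30.7% of all tested genes, and 1 was lower in both, against 32.7%. Since the sets were defined from these libraries, this is a description without a test. Nor was the pattern shared by all such genes or particular to them. On the log2 scale of the set means, 2 of the 6 mural surface members were higher in the pair (median -0.18). In lists that hold no member, 15 of 26 smooth muscle genes (median 0.12) and 5 of 15 pericyte genes (median -0.80) were higher. So were 27 of 34 non-muscle actomyosin genes (median 0.45). The spread was also wide: the median coefficient of variation over the 6 libraries was 44.4% for the members and 20.99% for all tested genes.

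**Figure D1:**
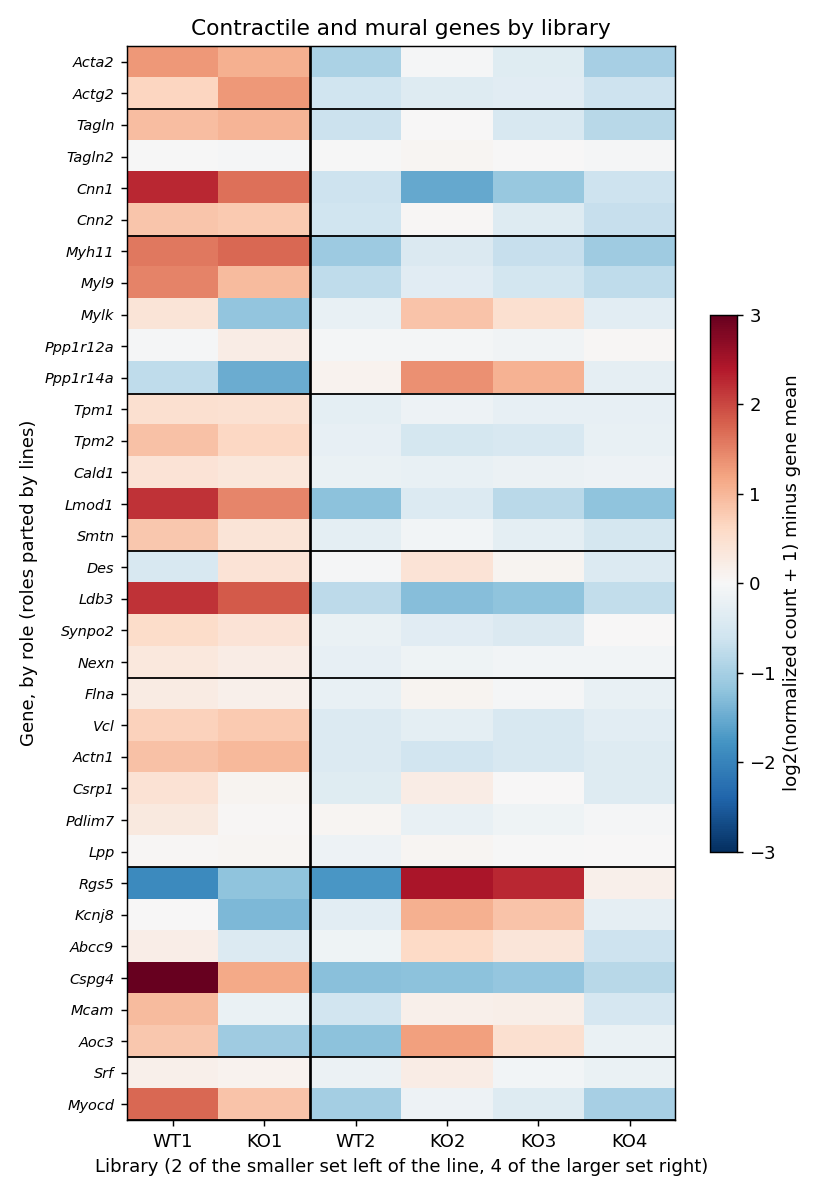
Heat map of the 34 genes that passed the filter (rows, parted by role) in the 6 libraries (columns); colour is log2(normalized count + 1) minus the gene's mean. Most rows are red in WT1 and KO1, left of the line, while Rgs5, Kcnj8 and Ppp1r14a are reddest in KO2 and KO3.

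The design asks whether these genes differ between the labelled genotypes, and none of the 34 passed the test. With genotype as the sole term, limma gave adjusted p = 1.00 for all 34 members and called 1 of 15229 genes (0.00657%). An unadjusted p under 0.05 was reached by 1 member, Rgs5, and by 0.939% of all tested genes. EdgeR and DESeq2 on recovered reads also called 0 members (0.00657% and 0.046% of all tested genes). An unadjusted p under 0.05 was reached by 1 and 2 members, and by 0.998% and 1.43% of all tested genes. The median log2 difference, labelled knockout minus labelled wild type, was -0.17 over the members, with 9 above 0 and 25 below, and 0.00 over all tested genes. This median was 0.26 without wild type 1 and -0.64 without wild type 2, so its sign turned on which wild type library was kept. The wild type libraries fall in different sets, and with a term for library set the median was 0.02, with 18 above 0 and 16 below. With that term limma, edgeR and DESeq2 each called 0 members, with 2, 0 and 2 at an unadjusted p under 0.05. Such a p was reached by 3.51% of all tested genes in limma, 3.51% in edgeR and 3.66% in DESeq2. Of all tested genes limma called 0.00657%, edgeR 0.0131% and DESeq2 0.328%.

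The precision of the comparison varied with the gene. The 95% interval of the genotype difference reached more than 1 log2 unit to each side for 20 members, so a change of that size could not be told from none in them. It was within 0.5 to each side for 6 members. For Tagln2 it ran from -0.26 to 0.28, for Lpp from -0.20 to 0.39 and for Ppp1r12a from -0.23 to 0.37.

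**Figure D2:**
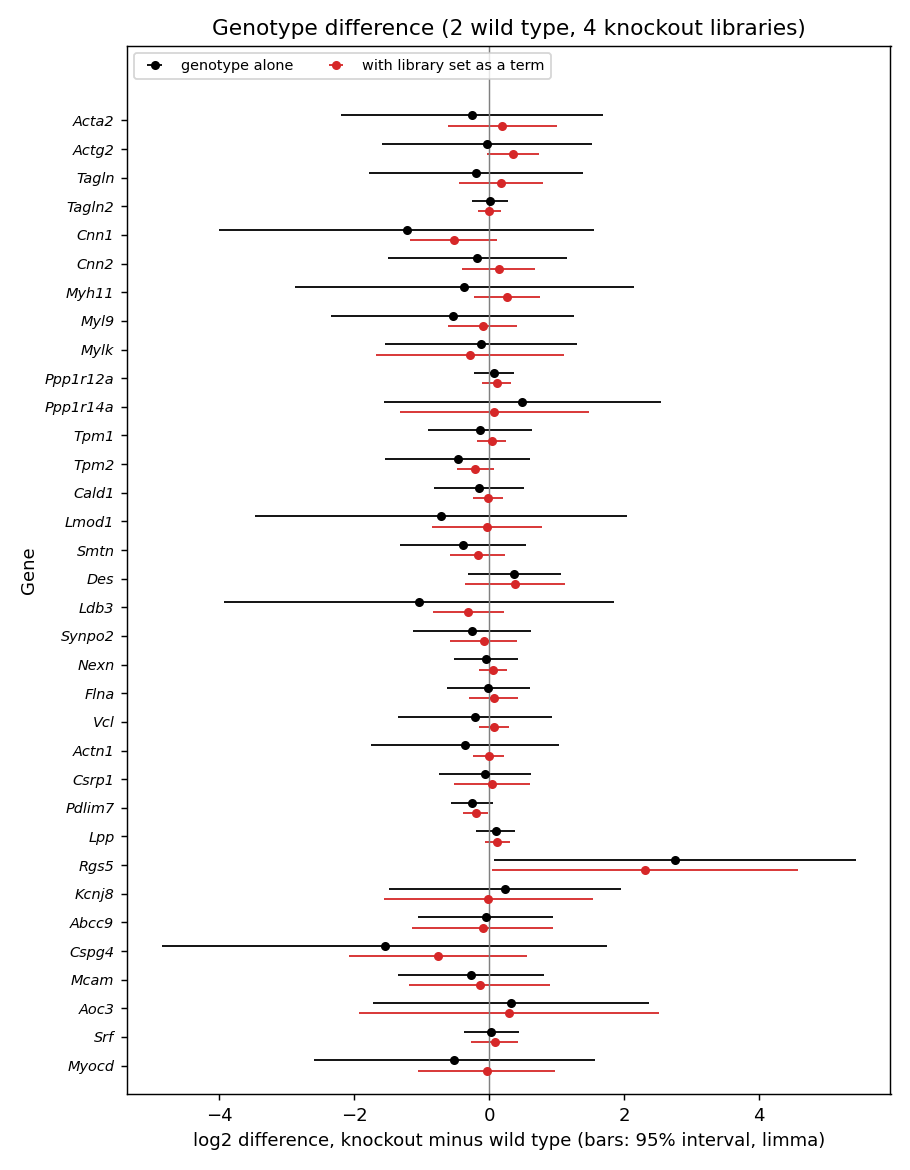
Log2 difference of each gene, knockout minus wild type, with its 95% interval from limma (2 wild type and 4 knockout libraries); black is genotype alone and red is the fit with a term for library set. All black intervals but that of Rgs5 include 0, and most red intervals are shorter; the red intervals of Rgs5 and Pdlim7 leave out 0.

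Smooth muscle actins were led by Acta2 (GRCm38 chromosome 19, 34241090 to 34255590, minus strand), the alpha actin of vascular muscle and of activated fibroblasts. It had 136402 and 28539.5 normalized counts in the wild types, and 115895, 54028, 42660 and 27519.8 in the knockouts. Wild type 1 and knockout 1 were highest, knockout 4 lay beside wild type 2, and the genotypes overlapped. The log2 difference was -0.26 ± 0.79 (SE, limma, 95% interval -2.20 to 1.68). Its sign turned with 1 library: it was 0.87 without wild type 1 and 0.05 without knockout 4, and -1.39 without wild type 2. After adding a term for library set it was 0.20 ± 0.32. Actg2, the gamma actin gene of visceral muscle, had 1209 and 510 counts in the wild types and 1906, 587, 610 and 504 in the knockouts. Acta2 exceeded it 54.6-fold to 113-fold in the libraries, as a ratio of normalized counts. No stretch of 100 bases of the longest Acta2 or Actg2 transcript occurs in another annotated gene, so reads of that length that match perfectly would not be shared between them.

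Calponin-family proteins bind actin filaments, and here Tagln varied between the libraries while Tagln2 was nearly level. Tagln, the transgelin gene of smooth muscle (chromosome 9, 45929619 to 45936058, minus strand), had 66720 and 22433 counts in the wild types and 71920, 35817, 25189 and 19833 in the knockouts. Overlaps with its neighbour genes on the other strand, Pcsk7 among them, add up to 67.9% of its exon bases. In this sum a base under more than 1 neighbour is counted for each. Whether counting used the strand is not given, so the Tagln values are uncertain. Tagln2, the broadly expressed form, had 16074 and 16122 counts in the wild types and 15841, 16889, 16375 and 15757 in the knockouts. Its coefficient of variation of 2.55% was below that of all but 0.440% of the tested genes. The ratio of Tagln to Tagln2 was 4.15 and 4.54 in wild type 1 and knockout 1, and 1.26 to 2.12 in the other 4 libraries.

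Cnn1, which encodes the calponin of differentiated smooth muscle (chromosome 9, 22099216 to 22109630, plus strand), had 8424 and 1141 counts in the wild types. It had 5503, 610.5, 805 and 1139.55 in the knockouts. In this gene, unlike Acta2, knockout 2 and 3 were the lowest libraries, and knockout 4 was next to wild type 2. The log2 difference was -1.23 ± 1.13 (SE, limma; 0.22 without wild type 1 and -2.67 without wild type 2), and -0.53 ± 0.25 with a term for library set. Cnn2, the calponin of non-muscle cells, followed Acta2 with 23520 and 8613 counts in the wild types and 22670, 13389, 10109.6 and 8186 in the knockouts. The ratio of Cnn1 to Cnn2 was 0.358 and 0.243 in the pair, 0.132 in wild type 2 and 0.0456, 0.0796 and 0.139 in knockout 2, 3 and 4.

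Among the myosin genes, the filament and light chain genes stood apart from the genes that regulate them. Myh11, the smooth muscle myosin heavy chain gene (chromosome 16, 14194535 to 14291372, minus strand), had 3117 and 489 counts in the wild types and 3418, 772, 639.6 and 496 in the knockouts. The pair was more than 4-fold above every other library. The log2 difference was -0.37 ± 1.02 (SE, limma; 0.97 without wild type 1 and -1.70 without wild type 2), and 0.27 ± 0.19 with a term for library set. Myl9, a regulatory light chain gene, had 16243 and 3428 counts in the wild types and 11114, 4547, 3978 and 3406 in the knockouts.

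Mylk, the gene of the kinase that phosphorylates this light chain, had 12318 and 8096 counts in the wild types. It had 4181, 17008, 13182 and 7614 in the knockouts, so that the lowest library was knockout 1 and the highest knockout 2. Ppp1r14a, which encodes CPI-17, an inhibitor of the myosin phosphatase, had 343 and 619.8 counts in the wild types and 205, 1494, 1196 and 482 in the knockouts. This was the member lower in both libraries of the pair than in all others. Ppp1r12a, the targeting subunit of the phosphatase, varied little, with 4594 and 4523 counts in the wild types and 5455, 4502, 4399 and 4864 in the knockouts. The log2 differences were -0.12 ± 0.58 for Mylk, 0.49 ± 0.84 for Ppp1r14a and 0.07 ± 0.12 for Ppp1r12a (SE, limma). That of Ppp1r14a was 0.066 without wild type 1, 0.091 without knockout 2, 1.04 without knockout 1 and 0.075 with a term for library set.

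**Figure D3:**
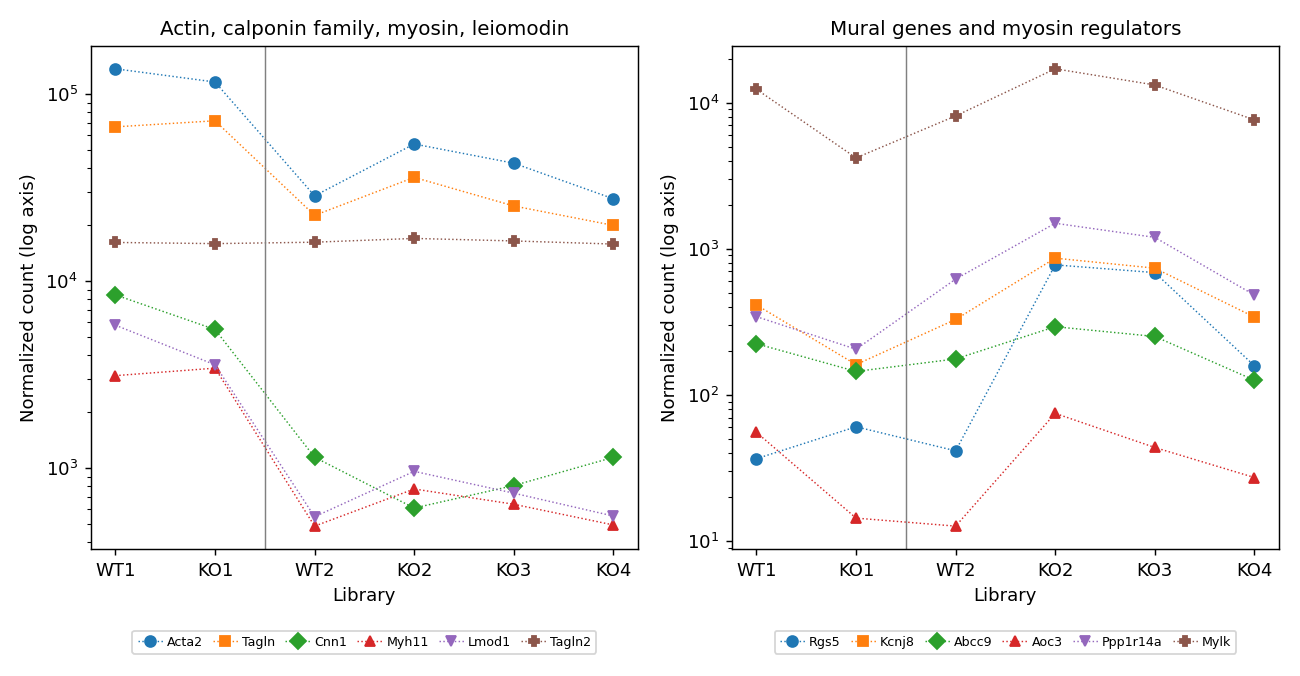
Normalized counts on a log axis in each library for 6 contractile genes (left) and 6 mural and myosin-regulating genes (right); dotted lines join 1 gene's libraries and have no time order. Acta2, Tagln, Cnn1, Myh11 and Lmod1 are lower right of the grey line while Tagln2 is level, and in the right panel KO2 is the highest library for each gene.

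Thin-filament genes covered a wide range of spread. Lmod1, which encodes leiomodin, an actin nucleator of smooth muscle, had 5801 and 548 counts in the wild types and 3562, 959, 733 and 553 in the knockouts. Smtn, the smoothelin gene, had 7608 and 3521 counts against 5665, 4101, 3518 and 2985. Of the tropomyosin genes, whose products lie along the actin filament, Tpm1 ranged from 34762 to 58806 counts and Tpm2 from 10148 to 26803. Their coefficients of variation were 26.7% and 44.4%, against 108% for Lmod1 and 38.4% for Smtn. In Tpm2, as in Cnn1, knockout 2 and 3 were the lowest libraries. Cald1, the caldesmon gene, ranged from 45646 to 71283. All 5 genes were higher in both libraries of the pair than in all others, and all 5 had log2 genotype differences below 0, from -0.72 to -0.14. Without wild type 1 all 5 were above 0, from 0.085 to 0.98, and with a term for library set they lay from -0.20 to 0.04.

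Of the tested sarcomere-associated and intermediate-filament genes, Ldb3, Synpo2 and Nexn were higher in both libraries of the pair than in all others. Des was not. Ldb3, which encodes a Z-disc PDZ-LIM protein, had 738 and 94.5 counts in the wild types and 586, 66.6, 70.3 and 96.9 in the knockouts. Des, the desmin gene of muscle and pericyte intermediate filaments, had 6601 and 8984 counts in the wild types and 12115, 12231, 9732 and 6827 in the knockouts. Wild type 1 was thus the lowest library for Des and the highest for Acta2 and Cnn1. The log2 difference of Des was 0.37 ± 0.28 (SE, limma), and 0.15 without wild type 1, 0.59 without wild type 2 and 0.055 in wild type 2 and knockout 2 to 4 alone. Synpo2, the synaptopodin 2 gene, ranged from 84.0 to 166 counts, and Nexn, which encodes nexilin, an actin-binding protein, from 1333 to 1953. Pln overlaps Cep85l on the other strand, and overlaps with annotated genes, summed gene by gene, add up to 64.7% of its exon bases, so its 0 is uncertain.

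Adhesion and cross-linking genes serve all adherent cells and were high throughout. Flna, the filamin A gene, ranged from 93219 to 129311 counts and Actn1, the alpha-actinin 1 gene, from 19729 to 57468. Vcl, the vinculin gene, ranged from 18800.3 to 45509.8, with 38.6% of the 100-base stretches of its longest transcript also found in Ap3m1, a neighbour on the other strand. Csrp1, a LIM protein gene of smooth muscle, ranged from 11609 to 20643, and Lpp, a focal adhesion gene, from 15486 to 18031. Actn1 and Vcl were higher in the pair, by 1.39 and 1.12 on the log2 scale of the set means, and Lpp by 0.07. Pdlim7, which encodes the adaptor enigma, had 7766 and 6591 counts in the wild types and 6568, 5489, 5833 and 6196 in the knockouts. Its genotypes did not overlap, which held for 2 of the 34 members and for 4.68% of all tested genes. The lowest wild type and the highest knockout value were close, and the log2 difference was -0.25 ± 0.13 (SE, limma adjusted p = 1.00).

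Of the 6 pericyte and mural surface genes, 4 were highest in knockout 2, and Cspg4 and Mcam in wild type 1. Rgs5, a regulator of G protein signalling and pericyte marker (chromosome 1, 169655501 to 169695813, plus strand), had 36.6 and 41.5 counts in the wild types. It had 60.6, 776, 687 and 158 in the knockouts, higher in 4 of 4 than in both wild type libraries. These values rest on 35 and 36 reads in the wild types and 59, 850, 801 and 157 in the knockouts. The log2 difference was 2.75 ± 1.09 (SE; 95% interval 0.07 to 5.43; limma adjusted p = 1.00), and it lay between 2.24 and 3.46 when any library was left out. After adding a term for library set it was 2.31 ± 0.90 (limma adjusted p = 0.999), and DESeq2 gave adjusted p = 0.456 with genotype alone and 0.420 with that term. Against the wild type library of its set, the ratio of normalized counts was 1.65 in knockout 1 (95% interval 1.07 to 2.59), 18.7 in knockout 2 (13.4 to 26.9), 16.6 in knockout 3 (11.9 to 23.8) and 3.82 in knockout 4 (2.65 to 5.65). These are exact binomial intervals and cover counting error only. Knockout 2 and 3 had the highest counts and knockout 1 the lowest of the knockouts.

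Kcnj8 and Abcc9 encode the pore and the sulphonylurea subunit of the potassium channel of mural cells. Kcnj8 had 412 and 328 counts in the wild types and 161, 862, 737 and 341 in the knockouts. Abcc9 had 224 and 176 counts in the wild types and 145, 293, 251 and 126 in the knockouts. Both were highest in knockout 2 and 3, with log2 differences of 0.23 ± 0.70 and -0.05 ± 0.41 (SE, limma). Aoc3, an amine oxidase gene of smooth muscle, was low, with 55.5 and 12.7 counts in the wild types and 14.4, 74.8, 43.7 and 27.3 in the knockouts (log2 difference 0.33 ± 0.83). These values rest on 53 and 11 reads in the wild types and 14, 82, 51 and 27 in the knockouts.

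Cspg4, the gene of the NG2 proteoglycan, had 2857 and 118 counts in the wild types and 626, 120.4, 127 and 158 in the knockouts. Its high value in wild type 1 was not shared by knockout 1 to the same degree, with a log2 difference of -2.19 between them. Between the labelled genotypes the log2 difference of Cspg4 was -1.55 ± 1.35 (SE, limma), and -3.85 without wild type 2 against 0.74 without wild type 1. Mcam, the CD146 gene, which both endothelial and mural cells express, had 21075 and 7355 counts in the wild types and 9599.51, 12281, 12471 and 7681 in the knockouts. Wild type 1 was the highest library for both Cspg4 and Mcam.

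Of the transcription factors, Srf itself varied little and its cofactor varied widely. Srf had 2979 and 2363 counts in the wild types and 2888, 3117, 2549.9 and 2332 in the knockouts. Myocd, the myocardin gene, had 366 and 54.2 counts in the wild types and 200.3, 99.5, 84.9 and 55.5 in the knockouts. For both Myocd and Acta2 the libraries ranked from wild type 1 down through knockout 1, 2 and 3, and wild type 2 and knockout 4 were the lowest, close to each other. Log2 differences were 0.03 ± 0.17 for Srf and -0.52 ± 0.85 for Myocd (SE, limma). Mkl1 and Mkl2, which encode the actin-sensing cofactors of SRF, ranged from 4331 to 5243 and from 2299 to 2995 counts.

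Genes with CArG boxes in the printed promoters did not share a spread. Over the 6 libraries the coefficient of variation was 12.4% for Srf, 48.4% for Cnn2, 69.5% for Acta2 and 75.1% for Myl9. Vcl and Ldb3, also with a full box, were at 43.6% and 110%. Members without a box in this window spanned as wide a range, from 2.55% for Tagln2 to 163% for Cspg4.

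Levels between genes were compared per kilobase of annotated exons. In wild type 1 the most abundant were Acta2 at 62114 normalized counts per kilobase, Tagln at 33561, Myl9 at 13979 and Flna at 13757. In wild type 2 the order was Acta2 at 12996, Tagln at 11284, Flna at 9917 and Tagln2 at 7743. RNA of the smooth muscle myosin heavy chain was far scarcer, with Myh11 at 410 and 64.3 per kilobase in these libraries, and Ldb3 and Myocd were lower still, at means of 45.1 and 22.3 over the 6 libraries. Acta2 led per kilobase in each of the 6 libraries. Tagln, whose values are uncertain for the overlap given above, came next, but in knockout 4 it was level with Flna, at 9976 and 9950.1.

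Within the library sets, the knockout libraries differed from the wild type library beside them in different ways. In knockout 1 minus wild type 1, 9 of the 34 members were above 0 and 25 below, with a median log2 of -0.18, and 5 of the 6 mural surface genes were below 0 (median -1.24). In knockout 2 minus wild type 2, 26 were above 0, with a median of 0.36, and all 6 mural surface genes were above 0 (median 1.07). Knockout 3 minus wild type 2 gave 25 above 0 and a median of 0.16, and knockout 4 minus wild type 2 gave 19 above 0 and a median of 0.01. The medians over all tested genes were -0.02, 0.01, 0.00 and 0.00. The last 3 comparisons share wild type 2, and each is 1 library against 1, so they have no test.

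**Figure D4:**
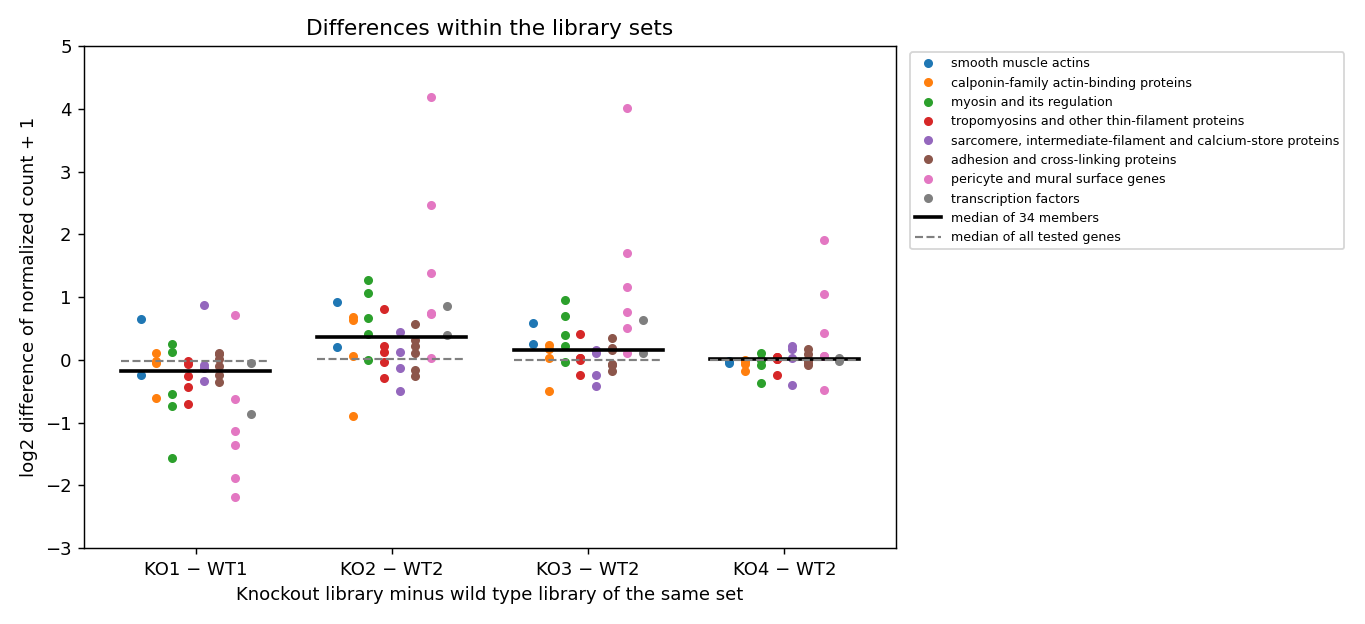
Log2 difference of each gene (points, coloured by role) between each knockout library and the wild type library of its set; black lines are medians of the 34 genes and grey dashed lines medians of all tested genes. The mural surface genes lie mostly below 0 for KO1 and above 0 for KO2 and KO3, and outside that role the KO4 points lie between -0.40 and 0.21.

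Markers of other cells also differed between these libraries. In knockout 1 minus wild type 1, endothelial markers had a median log2 of -0.67 (15 of 15 below 0) and mesothelial markers 1.07 (8 of 8 above 0). In knockout 2 and 3 minus wild type 2, macrophage markers stood at 0.29 and 0.93, mesothelial markers at -0.52 and -1.02 and endothelial markers at 0.03 and -0.15. The 6 tested lung epithelial markers stood at 0.74 (5 of 6 above 0) and 0.84 (6 of 6 above 0). The 12 fibroblast markers stood at 0.18 and 0.10, with 7 of 12 above 0 in each. For knockout 4 the endothelial median was -0.71, with 15 of 15 below 0, while the contractile median was 0.01. Between the labelled genotypes all 15 endothelial markers had log2 differences below 0, with a median of -0.76 (limma, genotype alone) and -0.46 with the set term. DESeq2 with that term, which called 0.328% of all tested genes, called Flt1 and Vwf of them lower (adjusted p = 0.00019 and 0.00123). Limma and edgeR with that term called neither. With genotype alone, limma, edgeR and DESeq2 called none of the endothelial markers. The part of these markers in the contractile differences was not tested.

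Other genes of the same processes were counted from lists that hold no member. Of 26 tested smooth muscle genes, 15 tested pericyte genes, 34 non-muscle actomyosin genes and 27 SRF cofactor and target genes, limma called 0 with genotype alone and 0 with a term for library set, and the median log2 differences with genotype alone were 0.04, 0.17, -0.10 and -0.09. DESeq2 with the set term, which called 0.328% of all tested genes, called 1 gene of these lists, Gucy1a3. It stands on both the smooth muscle and the pericyte list and encodes a subunit of the nitric oxide receptor. Gucy1a3 had 122 and 291 counts in the wild types and 414, 572, 569 and 419 in the knockouts. Its groups did not overlap, and its log2 difference with the set term was 1.18 ± 0.30 (SE, DESeq2 adjusted p = 0.0297; limma adjusted p = 0.999, edgeR adjusted p = 1.00). In knockout 2 and 3 minus wild type 2, 14 and 13 of the 15 pericyte genes were above 0, with medians of 0.68 and 0.49. In knockout 1 minus wild type 1 and knockout 4 minus wild type 2, 6 of the 15 were above 0 in each, with medians of -0.69 and -0.05. Pdgfrb, the platelet-derived growth factor receptor of mural cells and fibroblasts, had 14572 and 12702 counts in the wild types and 6708, 22486, 19138 and 10958.5 in the knockouts. Knockout 1 was lowest and knockout 2 highest, as for Mylk and Kcnj8. Actb, the cytoplasmic actin gene, had 133272 and 72458 counts in the wild types and 129609, 81629.8, 77629 and 74176 in the knockouts, high in wild type 1 and knockout 1 as Acta2 was.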

How the data were processed

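Poly(A)-selected RNA was sequenced in 6 libraries, 2 of wild type and 4 of knockout cells, and each library's group was taken from its title. The deposited values are a normalized count signal, which the authors made by dividing the reads of each gene by a size factor of the library. The submitters' processing notes name Trimmomatic 0.36, STAR 2.6.0c, Subread 1.6.1 (featureCounts) and the build GRCm38.p6. Other versions and HTSeq stand in the series design text. The tools behind this table, and whether strand was used, are not given in the sources used here. Each value was a whole multiple of its library's smallest value above 0 (100% of values, within 1e-06 of a read), so whole reads were recovered, 32699024 to 45613685 per library. At such depth, counting error is small beside the spread between libraries for all but the lowest genes.

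Genotypes were compared with limma 3.58.1 in R 4.3.3 (lmFit and trended eBayes) on log2(normalized count + 1), which understates the differences of low genes. The fit took the 15229 genes averaging 10 or more normalized counts, with genotype as the sole term, and p-values were adjusted by Benjamini-Hochberg over all of them at a threshold of 0.05. The labels do not tie libraries to separate animals, and p-values therefore reflect only how these libraries vary, perhaps technically. No pair of libraries of a genotype agreed within sampling noise (chi-square per gene of 28.4 to 438).

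The library sets come from average-linkage clustering of the correlations over 15195 tested genes that are not members. They were drawn from the same libraries that were then compared, so p-values with the set term are only descriptive. Other settings were pseudocounts of 0.5 and 10, a minimum mean of 50, no filter, TMM and upper-quartile scaling, no trend, edgeR 4.0.16 and DESeq2 1.42.0 on recovered reads, a block for the title number, a term for library set, the larger set alone and each library left out. All 36 members are named whatever their result; of the other lists, the most abundant genes or those called may be named. Actc1, Myh6, Mkl1 and Mkl2 are named although their values were already known. The members and lists were chosen with earlier results of these data known. Exon lengths and gene positions are from GENCODE release M21 (GRCm38), and promoters from RefSeq (GRCm38.p6).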

Additional observations from a re-analysis of the deposited data

Results flagged for a closer look

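Among the 4 libraries labelled knockout, knockout 1 stood far above the other 3 for 12 of the 34 members. The gap between knockout 1 and the next library, as a share of the range of the 4, was 0.924 for Actg2, 0.892 for Cnn1, 0.905 for Myh11, 0.852 for Myl9, 0.887 for Tpm1 and 0.886 for Cald1. It was 0.865 for Lmod1, 0.942 for Ldb3, 0.88 for Nexn, 0.901 for Vcl, 0.934 for Actn1 and 0.925 for Cspg4. Of 12 other genes checked in the same way, Actb, Myh9 and Tnnt2 showed the same, with 0.866, 0.851 and 0.946. Each passed Dixon's 95% critical value for 4 samples, as chance does in about 1 in 20 groups, and genes of 1 library are not independent. Knockout 1 is the knockout library that clustered with wild type 1, and both were above all other libraries in 30.7% of all tested genes. That clustering had already set knockout 1 apart, so the critical value, which treats the 4 knockouts as 1 group, is no test here. The share of all tested genes with such a gap in knockout 1 was not counted. The 12 of 34 cannot be set against it and is not a result about the members.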

How the results depend on the processing

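No member that was tested passed the threshold under any alternative run (33 were tested with a minimum mean of 50, which leaves out Aoc3, and 35 with no filter), so the changes of sign below are of differences that were never called. No member changed sign under the other pseudocounts, filters, scalings or the fit without trend. Over all genes, 1 was called in the main setting, 2 with a pseudocount of 10, 7 by DESeq2, 0 with the title number as a block, 2 by edgeR and 50 by DESeq2 with a term for library set, 0 in the larger library set alone, and 0 to 2 when each library was left out in turn. The median of the members, -0.17, was 0.18 in the larger set alone and ran from -0.64 (without wild type 2) to 0.26 (without wild type 1). The cause of these changes was not tested. The replicate number of the titles is shared by wild type and knockout libraries 1 and 2 and nothing says that it pairs them. Deviations from the genotype mean correlated across genes at r = 0.841 for wild type 1 and knockout 1, and at 0.562 for wild type 2 and knockout 2. The deviations of the 2 wild types are equal and opposite by construction, so these values are not separate. Both pairs also lie within a library set, and wild type 2 was not set against knockout 3 or 4. The values therefore cannot show whether the numbers pair libraries. Knockout 3 and 4 add nothing to the blocked fit. Depth limits only the lowest members: Rgs5 rests on 35 reads in wild type 1 and Aoc3 on 11 in wild type 2. EdgeR with genotype alone turned the sign of 3 members: Actg2 0.080, Mylk 0.049, Abcc9 0.034. DESeq2 with genotype alone turned the sign of 3 members: Actg2 0.067, Mylk 0.033, Abcc9 0.021. The title number as a block turned the sign of 12 members: Acta2 0.34, Actg2 0.43, Tagln 0.39, Cnn2 0.29, Myh11 0.40, Tpm1 0.059, Lmod1 0.051, Nexn 0.017, Flna 0.11, Vcl 0.11, Csrp1 0.11, Abcc9 0.052. The library set as a term in limma turned the sign of 11 members: Acta2 0.20, Actg2 0.35, Tagln 0.18, Cnn2 0.14, Myh11 0.27, Tpm1 0.036, Nexn 0.053, Flna 0.064, Vcl 0.069, Csrp1 0.038, Kcnj8 -0.018. The same term in edgeR turned the sign of 10 members: Acta2 0.23, Actg2 0.36, Tagln 0.21, Cnn2 0.16, Myh11 0.28, Tpm1 0.043, Nexn 0.058, Flna 0.073, Vcl 0.077, Csrp1 0.051. The same term in DESeq2 turned the sign of 11 members: Acta2 0.22, Actg2 0.36, Tagln 0.20, Cnn2 0.15, Myh11 0.28, Tpm1 0.037, Nexn 0.051, Flna 0.066, Vcl 0.070, Csrp1 0.044, Kcnj8 -0.022. The larger library set alone turned the sign of 18 members: Acta2 0.48, Actg2 0.15, Tagln 0.22, Cnn2 0.27, Myh11 0.36, Myl9 0.20, Mylk 0.56, Tpm1 0.071, Cald1 0.019, Lmod1 0.41, Nexn 0.15, Flna 0.17, Vcl 0.044, Csrp1 0.29, Abcc9 0.25, Cspg4 0.19, Mcam 0.52, Myocd 0.51. Leaving out each library in turn turned the sign of 29 members, whose lowest and highest values were: Acta2 -1.39 to 0.87, Actg2 -0.66 to 0.58, Tagln -0.99 to 0.59, Cnn1 -2.67 to 0.22, Cnn2 -0.90 to 0.55, Myh11 -1.70 to 0.97, Myl9 -1.67 to 0.58, Mylk -0.42 to 0.26, Tpm1 -0.52 to 0.24, Tpm2 -1.02 to 0.085, Cald1 -0.46 to 0.15, Lmod1 -2.42 to 0.98, Smtn -0.94 to 0.17, Ldb3 -2.52 to 0.43, Synpo2 -0.63 to 0.12, Nexn -0.33 to 0.23, Flna -0.25 to 0.22, Vcl -0.76 to 0.33, Actn1 -1.005 to 0.29, Csrp1 -0.46 to 0.33, Abcc9 -0.26 to 0.15, Cspg4 -3.85 to 0.74, Mcam -1.03 to 0.49, Myocd -1.88 to 0.85, Lpp -0.006 to 0.19, Aoc3 -0.70 to 1.35, Srf -0.14 to 0.20, Tagln2 -0.010 to 0.024, Kcnj8 -0.10 to 0.70. The other 5 kept their sign: Des 0.15 to 0.59, Ppp1r14a 0.066 to 1.04, Ppp1r12a 0.008 to 0.11, Pdlim7 -0.37 to -0.13 and Rgs5 2.24 to 3.46. The blocked fit put Des at 0.66.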
